A study of Mus musculus with 6 samples.

Results

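The core pluripotency transcription factors described here are 10 genes of the mouse embryonic stem cell network, namely Pou5f1, Sox2, Nanog, Esrrb, Tfcp2l1, Tbx3, Zfp42, Prdm14, Nr0b1 and Sall4. They are 10 of 31876 genes with a value and 10 of 13268 genes tested, and all 10 passed the minimum for testing, a mean of 1 FPKM in either condition. FPKM is the number of fragments on a transcript scaled for the length of the transcript and for library size, so that levels can be compared between genes. A gene's level is the sum over its isoforms. RNA came from TT-FHAgo2, which the labels describe as clonal mouse embryonic stem cells whose Argonaute 2 (Ago2) is set by doxycycline. The cells of both conditions had been propagated in 0.1 µg/mL doxycycline, on gelatin with serum and leukemia inhibitory factor. In the doxycycline condition they were then held at 2.5 µg/mL for 48 h, the dose given for wild-type amounts of Ago2. In the other condition doxycycline had been absent for 96 h. Each condition had 2 polyA libraries, strand-specific and made by the UTP method, numbered 0 and 1 in the table of values. Of 6 samples in the series, the 2 with added spike-in standards were not analysed here. The series asks how far microRNAs and the abundance of their targets allow transcripts to compete, and Ago2 is the protein that loads microRNAs.

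Pou5f1 (the protein Oct4) and Sox2 bind DNA side by side at many enhancers of embryonic stem cells, and together with Nanog they form the centre of a network whose members activate one another. Esrrb, Tfcp2l1, Tbx3, Prdm14, Nr0b1 and Sall4 join this network in the naive state, the state of the early epiblast, and Zfp42 (Rex1) is the usual reporter gene for it. Leukemia inhibitory factor, acting through Stat3, keeps several of them expressed in culture.

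Ago2 stood at 35.2 and 36.7 FPKM with doxycycline and at 28.7 and 28.8 FPKM off it. Both libraries off the drug were thus below both libraries on it (log2 change -0.32, limma adjusted p = 0.0293). These values are RNA summed under the symbol Ago2. They cannot separate a copy set by doxycycline from any other copy, and they do not measure the protein. Low FPKM values stepped in whole fragments in the libraries numbered 1, which puts the one with doxycycline at 46.5 M fragments and the one off it at 46.7 M (M for mega). The depth of the libraries numbered 0 is unknown. On that footing about 1200 and 2600 fragments lay behind Prdm14, the member with the fewest, and about 54700 and 38400 behind Zfp42. Nothing in the labels says whether the 2 libraries of a condition were grown separately, so the spread behind each p-value may be technical. An exact permutation test of 2 libraries against 2 cannot go below p = 0.33 (two-sided), and calls therefore rest on limma fitted across all genes, with adjusted p under 0.05.

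The factors did not move together. Prdm14, Tfcp2l1 and Nanog were higher off doxycycline, Nr0b1, Sall4 and Zfp42 were lower, and Pou5f1, Sox2, Esrrb and Tbx3 did not pass the test. Thus 6 of 10 members were called, where 40.3% of all genes tested were. The 3 higher members stand against 19.4% of all genes called higher, and the 3 lower members against 20.9% called lower. The median log2 change of the members (off doxycycline minus doxycycline, on the log2(FPKM + 0.5) scale) was -0.15, and that of all genes tested was -0.06. Their median absolute change was 0.52, beside 0.32 for all genes tested. For 9 of 10 members the groups did not overlap, as was the case for 73.1% of all genes tested. The 10 genes summed to 2240 and 2404 FPKM with doxycycline and to 2083 and 2323 FPKM off it, so the summed level overlapped between conditions while its composition differed. In bulk RNA, fewer cells expressing a gene and less RNA per cell cannot be told apart.

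**Figure D1:**
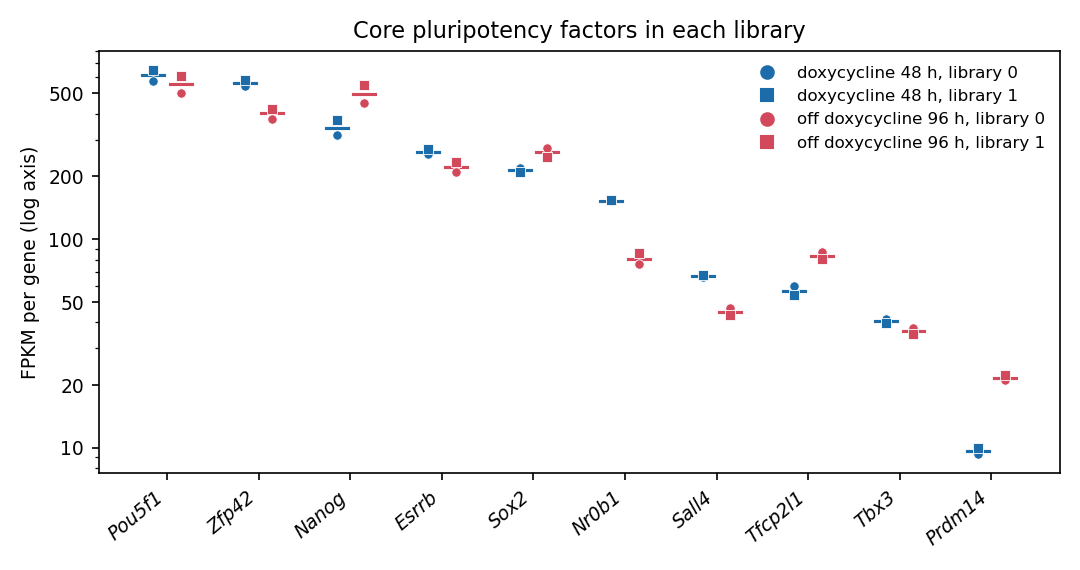
FPKM of each factor (vertical log axis) in the 4 libraries, doxycycline for 48 h in blue and off doxycycline for 96 h in red, with circles for libraries numbered 0, squares for those numbered 1 and bars for the mean of 2. Prdm14 and Nr0b1 show the widest gaps between conditions, and the points of Pou5f1 interleave.

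Pou5f1 (chromosome 17, 35643007 to 35647721, plus strand, build NCBIM37), the POU-domain factor without which no pluripotent cells form, measured 575 and 648 FPKM with doxycycline and 502 and 603 FPKM off it. The means were 612 ± 51.8 and 552 ± 71.5 FPKM (SD, n = 2 each), and one library off the drug lay above one library on it. The log2 change of -0.15 (SE 0.13) did not pass (limma adjusted p = 0.405), with a 95% confidence interval of -0.49 to 0.19. Pou5f1 was the member with the highest level in both conditions, at percentiles 99.2 and 99.3 of all genes tested.

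Sox2 (chromosome 3, 34548927 to 34551383, plus strand), the partner of Oct4 on DNA, is a gene of a single exon. It measured 220 and 209 FPKM with doxycycline and 275 and 247 FPKM off it. Both libraries off doxycycline were above both on it, with means of 261 ± 19.6 and 215 ± 8.26 FPKM (SD, n = 2). The log2 change of 0.28 (SE 0.10, 95% interval 0.03 to 0.53) missed the threshold after adjustment over all genes (limma adjusted p = 0.0757). It passed with values rescaled to TPM, which gives every library the same total, where the change was 0.44 (limma adjusted p = 0.0314), and did not with the library medians set equal, where it was 0.22 (limma adjusted p = 0.148).

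Nanog (chromosome 6, 122657507 to 122664651, plus strand), a homeodomain factor whose level varies between cells of a culture, measured 315 and 371 FPKM with doxycycline and 449 and 550 FPKM off it. Each library off the drug exceeded each library on it, and the means rose from 343 ± 40.1 to 499 ± 71.5 FPKM (SD, n = 2). The log2 change was 0.54 (SE 0.15, limma adjusted p = 0.0386). This call was close to the threshold: it was lost without the doxycycline library numbered 0 (change 0.42, adjusted p = 0.18), without the one numbered 1 (0.66, adjusted p = 0.0585) and without the library off doxycycline numbered 1 (0.39, adjusted p = 0.106). It was also lost with fully matching isoforms alone (adjusted p = 0.222), with every isoform of the symbol (0.0722) and with no filter on low values (0.106), while the direction held in all 15 alternatives.

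These 3 centre genes were also set against each other within libraries, where scaling between libraries has no effect. The ratio of Nanog to Pou5f1 levels was 0.547 and 0.573 with doxycycline and 0.895 and 0.912 off it. Both ratios off the drug lay above both ratios on it. For Sox2 over Pou5f1 the ratios were 0.383 and 0.322, against 0.548 and 0.41, again without overlap. The ratio of Nanog to Sox2 was 1.43 and 1.78 with doxycycline and 1.63 and 2.23 off it, and these overlapped.

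Promoters from RefSeq (build GRCm38.p6, 250 bases before to 50 after each start) were matched for 7 of the 10 genes, 10 promoters in all. They were searched on both strands for the composite element that Oct4 and Sox2 bind together (TTTGCAT, any base, then ACAA), for the octamer (ATGCAAAT), whose reverse complement overlaps the start of the composite element, for TCAAGGTCA, of the kind Esrrb binds, and for TTCCNGGAA, of the kind Stat3 binds. The composite element was present in both overlapping Nanog promoters and in 12 of 32851 promoters overall (0.0365%). The octamer was present in the Zfp42 promoter and in 1.74% of all promoters. No member promoter held the Esrrb-type letters (0.423% of all promoters) or the Stat3-type letters (1.15%). One Nanog promoter and the Zfp42 promoter are shown, since these were the only members with a match, with the matched letters in capitals. The other Nanog promoter overlaps the one shown and holds the same match. The first is chr6:122707239-122707538 on the plus strand, with the match 75 bases before the start. The second is chr8:43306960-43307259 on the minus strand, with the match 186 bases before the start.
Nanog promoter: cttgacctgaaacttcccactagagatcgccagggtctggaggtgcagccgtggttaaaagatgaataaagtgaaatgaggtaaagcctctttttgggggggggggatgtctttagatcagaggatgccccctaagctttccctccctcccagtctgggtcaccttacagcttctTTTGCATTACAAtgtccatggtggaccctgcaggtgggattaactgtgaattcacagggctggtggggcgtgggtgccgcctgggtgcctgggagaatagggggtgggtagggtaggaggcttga
Zfp42 promoter: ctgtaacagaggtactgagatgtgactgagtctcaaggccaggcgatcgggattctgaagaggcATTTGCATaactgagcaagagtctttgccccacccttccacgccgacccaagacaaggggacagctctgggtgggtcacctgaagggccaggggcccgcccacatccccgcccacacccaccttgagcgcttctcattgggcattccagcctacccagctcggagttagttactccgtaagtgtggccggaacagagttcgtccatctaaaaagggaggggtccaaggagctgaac
A match describes these letters and shows no binding.

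Among the factors of the naive state, Tfcp2l1 and Prdm14 rose and Zfp42 fell. Tfcp2l1 (chromosome 1, 120524522 to 120581744, plus strand), which leukemia inhibitory factor induces through Stat3, measured 59.4 and 54 FPKM with doxycycline and 86.8 and 80.1 FPKM off it. The groups lay well apart, and the means were 56.7 ± 3.87 and 83.4 ± 4.75 FPKM (SD, n = 2). The log2 change was 0.55 (SE 0.10, limma adjusted p = 0.0114), and the call was lost in 1 alternative, without the doxycycline library numbered 1 (change 0.48, adjusted p = 0.0749).

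Prdm14 (chromosome 1, 13103509 to 13117895, minus strand), a regulator that restrains DNA methylation and fibroblast growth factor signalling in these cells, had the lowest level of the members and the largest change. It measured 9.34 and 9.98 FPKM with doxycycline and 21.1 and 22.3 FPKM off it. The libraries of a condition differed little beside the gap between conditions, with means of 9.66 ± 0.453 and 21.7 ± 0.8 FPKM (SD, n = 2). The ratio of the means was 2.25 and the log2 change 1.13 (SE 0.09, limma adjusted p = 0.00234). Prdm14 was the one member with an absolute log2 change of at least 1 and a call, which 6.7% of all genes tested reached. Its level moved from percentile 46.4 to 67.9 of all genes tested.

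Zfp42 (chromosome 8, 44376947 to 44392401, minus strand), a zinc finger gene that is silenced early when cells leave the naive state, measured 544 and 581 FPKM with doxycycline and 378 and 423 FPKM off it. Its groups did not overlap, and the means fell from 563 ± 26.4 to 401 ± 31.6 FPKM (SD, n = 2). The log2 change was -0.49 (SE 0.11, limma adjusted p = 0.0209). The call was lost without either doxycycline library (adjusted p = 0.0849 without number 0 and 0.134 without number 1) and without the library off doxycycline numbered 0 (0.0762). It was also lost with no filter on low values (0.0677), with fully matching isoforms alone (0.0631) and with the most abundant isoform alone (0.0742). The ratio of Nanog to Zfp42 was 0.578 and 0.639 with doxycycline and 1.19 and 1.3 off it, so the order of these 2 genes was reversed in both libraries off the drug. That this ratio separated the conditions follows from Nanog being higher and Zfp42 lower there.

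Esrrb (chromosome 12, 87702067 to 87862657, plus strand), an orphan nuclear receptor that can stand in for Nanog in maintaining the undifferentiated state, measured 257 and 270 FPKM with doxycycline and 211 and 234 FPKM off it. The libraries off the drug were both below those on it (263 ± 8.85 against 223 ± 15.9 FPKM, SD, n = 2), and the log2 change of -0.24 (SE 0.10) did not pass (limma adjusted p = 0.101). It passed when the medians of the libraries were set equal, with a change of -0.31 (limma adjusted p = 0.0209), and did not with TPM, where the change was -0.08 (limma adjusted p = 0.371). The ratio of Tfcp2l1 to Esrrb was 0.231 and 0.2 with doxycycline and 0.41 and 0.342 off it. With Tfcp2l1 higher and Esrrb lower in both libraries off the drug, this ratio was bound to separate.

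Tbx3 (chromosome 5, 120090113 to 120134733, plus strand), a T-box factor of the naive network, measured 41.7 and 39.6 FPKM with doxycycline and 37.7 and 35.3 FPKM off it. The groups did not overlap but lay close together, with means of 40.6 ± 1.49 and 36.5 ± 1.7 FPKM (SD, n = 2). The log2 change of -0.15 (SE 0.08, 95% interval -0.37 to 0.06) did not pass (limma adjusted p = 0.203).

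Nr0b1 and Sall4, which encode binding partners of Oct4, both fell. Nr0b1 (Dax1; chromosome X, 83437103 to 83441286, plus strand), an orphan nuclear receptor that restrains Oct4 activity, measured 152 and 154 FPKM with doxycycline and 75.9 and 85.7 FPKM off it. The gap between conditions exceeded the difference within each, with means of 153 ± 1.35 and 80.8 ± 6.94 FPKM (SD, n = 2). The ratio of the means was 0.53, with a log2 change of -0.92 (SE 0.10, limma adjusted p = 0.00362). The ratio of Prdm14 to Nr0b1 was 0.0614 and 0.0648 with doxycycline and 0.278 and 0.26 off it. Its separation follows from the opposite directions of these genes and is no further evidence.

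Sall4 (chromosome 2, 168573826 to 168593443, minus strand), a zinc finger factor that recruits the NuRD deacetylase complex, measured 65.9 and 67.3 FPKM with doxycycline and 46.6 and 43.3 FPKM off it. Both libraries off doxycycline were lower, at a mean of 45 ± 2.33 against 66.6 ± 0.972 FPKM (SD, n = 2). The log2 change was -0.56 (SE 0.08, limma adjusted p = 0.00779). The calls of Nr0b1, Sall4 and Prdm14 held in each of 15 alternatives, with adjusted p of at most 0.02 for Nr0b1, 0.0487 for Sall4 and 0.0257 for Prdm14.

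**Figure D2:**
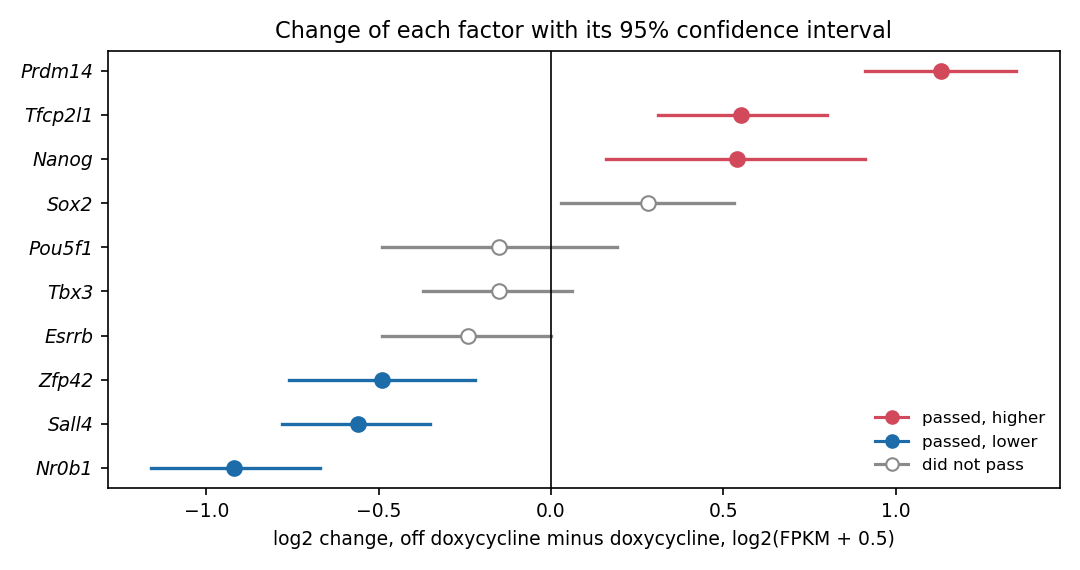
Log2 change of each factor, off doxycycline minus doxycycline, as points with 95% confidence intervals from limma, filled where the adjusted p was under 0.05. Prdm14 (1.13), Tfcp2l1 (0.55) and Nanog (0.54) lie to the right, Nr0b1 (-0.92), Sall4 (-0.56) and Zfp42 (-0.49) to the left, and open points mark the 4 genes that did not pass.

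The order of the levels also differed. With doxycycline, Pou5f1 and Zfp42 stood at the top with overlapping libraries, followed by Nanog, Esrrb, Sox2, Nr0b1, Sall4, Tfcp2l1, Tbx3 and Prdm14. Every other pair of neighbours was apart by more than the sum of their SDs. Off doxycycline, Pou5f1 and Nanog stood at the top with overlapping libraries. Zfp42 came next, below Nanog by less than the sum of their SDs, and Sox2, Esrrb, Tfcp2l1, Nr0b1, Sall4, Tbx3 and Prdm14 followed. Tfcp2l1 and Nr0b1 overlapped there, at 83.4 and 80.8 FPKM. Nanog thus moved from below Zfp42 to above it, Sox2 from below Esrrb to above it, and Tfcp2l1 from below Sall4 to above it. Neither Sox2 nor Esrrb passed the test. The Sox2 level leaves out its 2336-nt form (29.7 and 17.4 FPKM with doxycycline) and 2426-nt form (14.2 and 16.2 FPKM). The separation of Sox2 from Esrrb with doxycycline rests on leaving them out. Tbx3 and Prdm14 kept the lowest places in both conditions.

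Scaling bears on the small changes. With TPM the median log2 change of all genes tested was 0.10 in place of -0.06, and 67.8% of called genes were higher in place of 48.2%. The sets of genes differ, since 14717 genes reached the minimum with TPM and 13268 with FPKM. With the library medians set equal the median was -0.12 and 37.9% of called genes were higher. On the TPM scale Pou5f1 and Tbx3 each stood at 0.01 and Esrrb at -0.08, and none of the 3 passed there (limma adjusted p = 0.939, 0.968 and 0.371). The 6 called members kept their direction and their call on the TPM scale, with changes of 1.30 for Prdm14, 0.72 for Tfcp2l1, 0.70 for Nanog, -0.33 for Zfp42, -0.40 for Sall4 and -0.76 for Nr0b1.

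Of the members' deposited isoforms, 61 entered the gene levels and 15 were left out by class. Of the 61, 11 were at 0 in every library and 37 reached the minimum for testing. No isoform of a member passed, nor did any of 32943 isoforms tested (0%). The smallest adjusted p in limma was 0.138 for the members and 0.0542 overall. At an unadjusted p under 0.05, limma gave 12 of the 37 member isoforms (32.4%) and 6053 of all isoforms (18.4%). Sox2 and Nr0b1 had 1 isoform each in their levels, and a single isoform held all of the Tfcp2l1 level. The 1315-nt isoform of Pou5f1, of 5 exons, held 99.3 to 99.6% of its gene's level.

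Nanog was divided among 3 isoforms. The 2211-nt form of 4 exons measured 212 and 219 FPKM with doxycycline and 292 and 309 FPKM off it, higher in both libraries off the drug. The 1078-nt form measured 38.4 and 121 FPKM with doxycycline and 48.7 and 189 FPKM off it. The 2152-nt form measured 63.4 and 23.9 FPKM, then 106 and 37.6 FPKM. The latter forms thus differed more between the libraries numbered 0 and 1 than between conditions, with the 1078-nt form high in the libraries numbered 1 and the 2152-nt form high in those numbered 0.

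Tbx3 showed a similar division by number. Its 2812-nt form measured 7.15 and 1.76 FPKM with doxycycline and 7.52 and 2.9 FPKM off it, and its 4564-nt form 7.25 and 9.13 FPKM, then 4.14 and 9.68 FPKM. Neither form separated the conditions. Its leading 4856-nt form of 8 exons was lower in both libraries off doxycycline, at 11.8 and 11.2 against 15.7 and 16.4 FPKM, and its 4982-nt form measured 5.84 and 5.37 against 5.03 and 4.07 FPKM.

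For the other factors the leading isoforms lay on the same side as the gene in both libraries. The 2564-nt form of Prdm14 measured 7.19 and 8.02 FPKM with doxycycline and 14.5 and 17.6 FPKM off it, and its 3122-nt form of 9 exons 1.74 and 1.85, then 5.38 and 4.57 FPKM. Both forms of Prdm14 were therefore higher off doxycycline. The 5062-nt form of Sall4 stood at 34.7 and 34.2 FPKM against 24.2 and 19.9 FPKM off the drug. Its 5073-nt form stood at 19.2 and 18.4 against 11.8 and 14.2 FPKM. Some Sall4 forms below 10% of the gene in the mean of each condition split by library number. The 2534-nt one measured 6.92 and 1.62 FPKM with doxycycline and 6.73 and 0 FPKM off it. The 3334-nt one measured 0 and 6.59, then 0 and 4.37 FPKM. The 1832-nt form of Zfp42 measured 468 and 519 FPKM with doxycycline and 340 and 388 FPKM off it, and a 5313-nt form of 4 exons 66.2 and 53.8, then 34.7 and 31.7 FPKM. The 3871-nt form of Esrrb, with 85.3 to 91.1% of its gene, measured 219 and 246 FPKM with doxycycline and 186 and 212 FPKM off it.

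**Figure D3:**
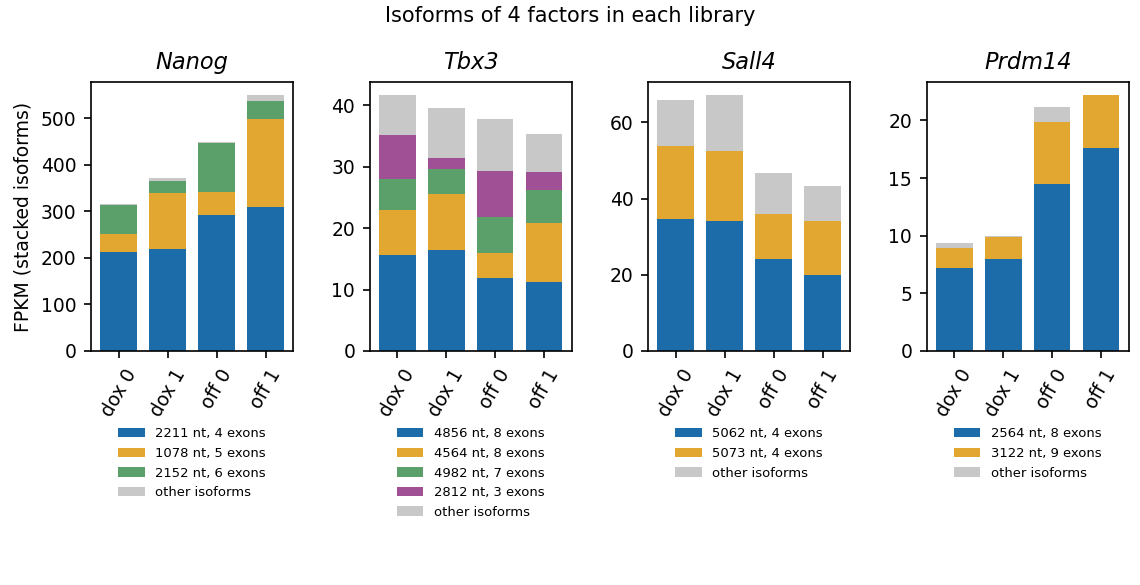
Stacked FPKM of the isoforms that held at least 10% of the level of Nanog, Tbx3, Sall4 or Prdm14 in either condition, with the rest in grey, for the libraries numbered 0 and 1 with doxycycline (dox) and off it (off). The 1078-nt and 2152-nt forms of Nanog trade places between the libraries numbered 0 and 1, whereas both named forms of Sall4 and of Prdm14 follow the condition. Some of the Sall4 forms in grey also split by library number.

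Some assembled isoforms overlap a member but do not enter its level. An assembled antisense isoform, not tested as a transcript of its own, lies over the end of Pou5f1 on the minus strand (chromosome 17, 35646022 to 35647496, 494 nt, 2 exons). It measured 51.1 and 65 FPKM with doxycycline and 51.5 and 69 FPKM off it, between 8.88 and 11.5% of the sense level. The groups overlapped. Among 19 genes of at least 100 FPKM with such an antisense isoform it ranked 6 by this share, beside a median of 0.658%. At Sox2, 14 assembled isoforms that overlap the gene were left out of its level. Its reference transcript has 1 exon and so no junction that an isoform could share. The 2336-nt and 2426-nt isoforms have the same start, end and strand as that transcript, so the Sox2 level may be understated. The 2336-nt one measured 29.7 and 17.4 FPKM with doxycycline and 37 and 33.7 FPKM off it, and the 2426-nt one 14.2 and 16.2, then 30.4 and 21.3 FPKM, both higher off doxycycline. With every isoform of the symbol included, the log2 change of Sox2 was 0.34 and still did not pass. Pou5f1 and Nanog have processed pseudogenes of near-identical sequence in the mouse genome, and how reads were split with them is uncertain.

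Since Ago2 acts through microRNAs, each member's 3′ untranslated region (GENCODE M21, the longest where there are several) was searched for sites of the microRNA families whose seeds are shared by the miR-290 and miR-302 clusters, abundant in embryonic stem cells, and by let-7, abundant in differentiated cells. The mature sequences, from RefSeq (GRCm38.p6), have the seed in capitals, and the sites in the members have in capitals the bases that pair with it and, in the let-7 sites, the A that follows the seed match.
miR-291a-3p: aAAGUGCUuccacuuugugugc
miR-294-3p: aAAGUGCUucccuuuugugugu
let-7a-5p: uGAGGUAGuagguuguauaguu
Tfcp2l1 site for miR-291a-3p: gatggccgAGCACTTcccaactg
Esrrb site for let-7: tcctgcccCTACCTCAgccagccg
Sall4 site for let-7: taatttatCTACCTCAattatctt
For the miR-291a-3p family, 1 of 10 members held a site pairing with the whole seed, namely Tfcp2l1 at position 5771 of a region of 7734 bases. No member held the longest class of site, in which an A follows the seed match, while 17.4% of 11494 tested genes with an annotated region held one or the other and 3.54% the longest class. Tfcp2l1 was among the members that rose. Prdm14 and Nanog, which also rose, held none of the sites searched, and their regions measured 803 and 1078 bases. For let-7, Esrrb (position 617 of 2563) and Sall4 (position 1082 of 1697) held a site of the longest class, present in 3.73% of the same genes. Sall4 fell and Esrrb did not pass. The match is of letters, and no binding was measured.

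Genes whose 4 values ran closest to those of the centre factors were sought among 8410 candidates, by Euclidean distance of centred log2 values over the 4 libraries. The nearest to Pou5f1 were Gtf3c5 (distance 0.011), Ngrn (0.016) and Arfgap1 (0.016). The nearest to Sox2 were Hbp1 (0.017), Suco (0.018) and Mier1 (0.020), and those to Nanog were Rbms2 (0.024), Mok (0.033) and Unc13d (0.037). Rbms2, for example, measured 35.3 and 41.3 FPKM with doxycycline and 51.1 and 61.5 FPKM off it. With 4 libraries such likeness describes these values alone.

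Further genes of the network, not all of them transcription factors, were lower more often than higher. Of 24 tested, 2 were called higher, 9 lower and 13 did not pass, with a median log2 change of -0.21, against 19.4% and 20.9% of all genes tested. Klf2, a Krüppel-like factor of the naive state, rose from 273 and 249 FPKM to 654 and 597 FPKM (log2 change 1.26, limma adjusted p = 0.00259), while its relatives Klf4 (-0.42) and Klf5 (-0.44) fell. Gbx2, a homeobox gene downstream of Stat3, fell from 12.8 and 12.4 to 3.54 and 4.35 FPKM (-1.56, limma adjusted p = 0.00228). Mybl2, a cell cycle factor, fell from 307 and 361 to 157 and 190 FPKM (-0.95), and the chromatin protein gene Hmga1 from 79.8 and 96.1 to 48.5 and 59.8 FPKM (-0.70). Stat3 itself stood at 31.1 and 35.5 FPKM with doxycycline and 30 and 33.3 FPKM off it, and did not pass (limma adjusted p = 0.625). The genes named here besides the leading 4 were chosen after their values were seen.

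Of 12 genes known as direct targets of Oct4 and Sox2, 3 were higher, 2 lower and 7 did not pass (median 0.15), with the same shares of all genes as background. Fgf4, the growth factor whose enhancer holds a classic site for both proteins, rose from 88.9 and 79.5 to 156 and 143 FPKM (log2 change 0.83, limma adjusted p = 0.00502). Utf1, with a site of the same kind, fell from 279 and 312 to 173 and 215 FPKM (-0.61, limma adjusted p = 0.0228). These targets thus did not share a direction. Spp1 rose from 359 and 408 to 484 and 547 FPKM (0.43), and Lefty1, a Nodal inhibitor, by 2.75.

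Among 14 stem cell markers 13 were tested, of which 5 were higher, 3 lower and 5 did not pass (median 0.04), against 19.4% of all genes tested higher and 20.9% lower. Alpl, the alkaline phosphatase used to stain colonies, rose from 61.9 and 64.6 to 122 and 136 FPKM (log2 change 1.02, limma adjusted p = 0.00289). Il6st, the gp130 subunit of the receptor for leukemia inhibitory factor, rose from 19.7 and 20.1 to 39.8 and 43.2 FPKM (1.04, limma adjusted p = 0.00255), and Lifr, the other subunit and named after its value was seen, from 14 and 14.1 to 17.2 and 17.9 FPKM (0.32, limma adjusted p = 0.0306). Epcam rose from 70.8 and 79.9 to 108 and 121 FPKM (0.60). Dppa3 (Stella), a factor of naive cells and the germ line, fell from 6.82 and 9.42 to 3.22 and 2.81 FPKM (-1.28, limma adjusted p = 0.00603).

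Genes of the formative and primed states, which follow the naive state, were lower in 9 of 15 tested cases and higher in 3, and 3 did not pass (median -0.54), where 20.9% of all genes tested were lower and 19.4% higher. Of the 9, Pou3f1 and Sox3 reached the minimum of 1 FPKM only with doxycycline, where they were high, as did Lef1, which did not pass, so the count and the median lean on that filter. Dnmt3b, a DNA methyltransferase, fell from 45.8 and 51.1 to 18.9 and 22.1 FPKM (log2 change -1.22, limma adjusted p = 0.00297), and Pou3f1 (Oct6) from 2.69 and 2.43 to 1.02 and 0.781 FPKM (-1.13, limma adjusted p = 0.00535). Otx2, a leading factor of the formative state, ran the other way, from 9.87 and 11.2 to 19.9 and 20.2 FPKM (0.90, limma adjusted p = 0.0039), as did Sall2 (0.96), a relative of Sall4. Fgf5, the usual marker of that state, was below the minimum for testing. The lists share genes (Utf1 is in 3 of them), so their counts are not independent.

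**Figure D4:**
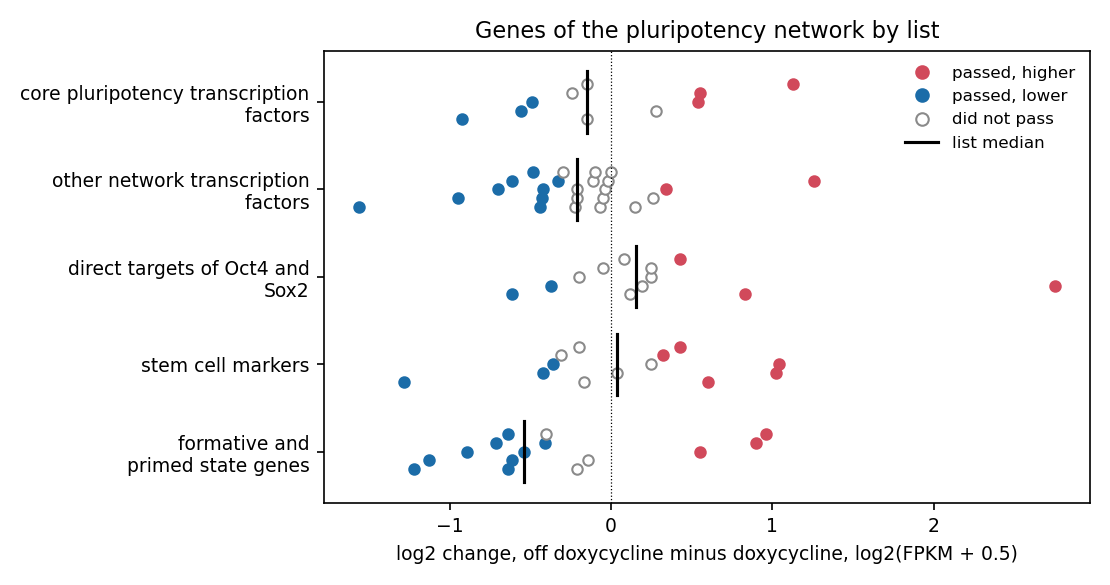
Log2 change of each tested gene, off doxycycline minus doxycycline, for the 10 core factors and 4 further lists, with the list median as a black bar, called genes in red (higher) or blue (lower) and the rest open. The medians are -0.15 for the core factors, -0.21 for other network factors, 0.15 for Oct4 and Sox2 targets, 0.04 for stem cell markers and -0.54 for formative and primed state genes.

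Most markers of other cell types were below the minimum for testing, and the levels of the rest are given by list. The 10 fibroblast and mesenchymal markers summed to 5.43 and 5.49 FPKM with doxycycline and 6.57 and 6.78 FPKM off it, with Col3a1 and Postn at 0, and none of the 3 tested passed limma's adjusted threshold, Fbn1 having the lowest unadjusted p (0.0215). The 10 mesoderm markers summed to 1.97 and 2.02, then 5.24 and 5.25 FPKM, and the 3 tested (Gsc, Kdr, Evx1) rose. All 3 reached the minimum of 1 FPKM only off doxycycline, where they were high, so that they were tested at all rests on the rise. The 10 trophoblast markers summed to 36.8 and 39.9, then 52 and 59.6 FPKM, where Krt8 rose (1.37) and Ascl2, which reached the minimum only with doxycycline, fell (-1.58). The 10 primitive endoderm markers summed to 28.3 and 30.2, then 18.5 and 22.1 FPKM, with Afp at 0. Of the 2 tested, Lama1, which led the sum, fell (-0.55). Gata4, which reached the minimum only off doxycycline, rose (0.68). Of 10 neural markers, summing to 71.6 and 75.3, then 66.8 and 78.9 FPKM, 1 of 4 tested rose (Nes, 0.94). Most of that sum was Tubb3, at 63.3 and 66.4, then 55.6 and 65.8 FPKM, above Tbx3 and Prdm14 in every library, and it did not pass. The 7 two-cell-like markers with a value, from a state that a few cells of a culture enter, summed to 11.5 and 10.5, then 17.1 and 18.6 FPKM, and 4 of 5 tested rose. Of these 4, Usp17lc and Usp17le reached the minimum only off doxycycline. The part of these cells in the changes of the core factors was not tested.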

How the data were processed

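The deposited values are FPKM per isoform, which the authors made with TopHat2 2.0.9 and Cufflinks 2.1.1 on NCBIM37, per the submitters' processing notes; the total behind the scaling is not given in the sources used here. Isoforms of at least 200 nt whose class in the deposited annotation was = or j (matching or sharing a junction with a reference transcript) were summed per gene, and 25 symbols stored as dates were restored. Tfcp2l1 was found under an older symbol. The 13268 genes whose mean reached 1 FPKM in one condition or both were compared on log2(FPKM + 0.5) by limma with an intensity trend (version 3.58.1, R 4.3.3). The test was two-sided, with 3.10 prior and 2 residual degrees of freedom, and p-values were adjusted by Benjamini-Hochberg over all these genes, at 0.05. Fold changes on this scale understate those of low genes. Library numbers 0 and 1 have no counterpart in the replicate numbers of the labels, and libraries were left unpaired. Data were simulated for the comparison of no doxycycline with doxycycline (13268 genes, 200 changed). The share of changes recovered was 87% at 0.5 and 100% at 1 on the log2 scale, with 6% false calls. The simulated spread depended on level alone, and only 200 genes were changed. These shares therefore need not hold for the measured data, where 5351 genes were called. Coordinates are those of the deposited annotation, and GENCODE M21 and RefSeq gave symbols and sequences. Python 3.11.15 with pandas 2.3.3 was used for the rest. Text names all 10 members, their isoforms with at least 10% of the gene, the 4 genes of each other list with the largest absolute change, and the 3 genes most like each of Pou5f1, Sox2 and Nanog. Members and lists were chosen with earlier results of these data known. The pairs of genes set in ratios were chosen by no stated rule.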

Additional observations from a re-analysis of the deposited data

How the results depend on the processing

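Of the 6 calls among the core factors, those of Prdm14, Nr0b1 and Sall4 held in 15 of 15 alternatives, that of Tfcp2l1 in 14, and those of Nanog and Zfp42 in 9 each. Adjusted p in limma ranged from 0.00186 to 0.222 for Nanog, 0.00238 to 0.134 for Zfp42 and 0.0015 to 0.0749 for Tfcp2l1. Leaving out 1 library gave 3 to 5 called members, with 1 to 3 higher and 2 to 3 lower; the fit without the doxycycline library numbered 1 gave the 3 called and the 1 higher. It gave 3065 to 4197 genes called in all, 1700 to 1974 of them higher and 1318 to 2365 lower, with the lone library of a condition assumed to vary like the others. TPM turned Pou5f1 and Tbx3 to 0.01 each and called 3955 of 14717 genes higher in place of 2578 of 13268. Fully matching isoforms alone called 2565 genes (1266 higher, 1299 lower), and the most abundant isoform alone 2023 (1046 higher, 977 lower). Deviations of the libraries numbered 0 correlated across 13268 genes (r = 0.46), but with 2 pairs and no label tying them the numbers do not establish a pairing. A fit with the number as a replicate block called 8123 genes, 4516 of them lower, and 9 members, 5 of them lower; Sox2, Esrrb and Tbx3 were called there (adjusted p = 0.00883, 0.0131 and 0.0417). Precision rests on 2 libraries per condition, and the depth is known for only 2 of the 4.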
